A study of Sus scrofa with 5 samples.

Results

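The pig miRNAs ssc-miR-378 and ssc-miR-378b-3p, 2 paralogs of the miR-378 family, were followed through exosomes, the small vesicles that cells release, of 5 body fluids. In plasma ssc-miR-378 had 477625 counts and ssc-miR-378b-3p had 18487. Both were picked by name because together they formed the most abundant miRNA family of plasma exosomes. They are the 2 names of that family among the 411 mature miRNA names listed for each library (below, the species prefix is left out). Plasma, serum, urine, bile and semen came from pigs of the Chinese Rongchang breed at postnatal day 180, with no treatment named in the labels and 1 small RNA library per fluid. The number of animals behind each library, and any sharing of animals between fluids, were not stated in the labels. All differences are therefore between single libraries, no p-value is given, and the intervals cover counting error only.

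miRNAs are short RNAs that guide Argonaute proteins to target messenger RNAs, which are then translated less or degraded. miR-378 is known as an intronic miRNA of PPARGC1B, the gene of the transcriptional coactivator PGC-1β, and it has been studied in mitochondrial metabolism, muscle and fat. In the RefSeq gene table of assembly Sscrofa11.1, which is not the build of the deposited files, 3 miR-378 genes have a symbol. MIR378-1 lies within the span of PPARGC1B, MIR378-2 within that of BCAS3, and MIR378B within that of RGS3. By their names, the first 2 are both genes of miR-378 and the third is the gene of miR-378b. The 2 mature names thus stand for at least 3 loci, and counts of miR-378 cannot be divided between MIR378-1 and MIR378-2. The rule that assigned reads matching both members was not stated in the labels or files, so the division between miR-378 and miR-378b-3p carries that uncertainty throughout.

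The libraries held from 26522 listed miRNA counts in urine to 2284926 in semen. The listed miRNAs took 0.246% of the library total recovered from the authors' normalized values in urine, against 4.47% to 21.2% in the other fluids. As a share of listed miRNA counts, miR-122, the hepatocyte miRNA, took 5.47% in bile and at most 1.03% in any other fluid. The red cell miRNA miR-451 took 8.48% in serum. Every listed value was 0 or at least 10 counts. Both members were listed above 0 in all 5 fluids, as were 67 of the 411 names.

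miR-378 was counted 477625 times in plasma, 6778 times in serum, 332 times in urine, 1246 times in bile and 1684 times in semen. As a share of its library's miRNA counts it stood at 41.4% in plasma (exact Clopper-Pearson 95% interval 41.3 to 41.5), 1.43% in serum (1.40 to 1.47), 1.25% in urine (1.12 to 1.39), 0.0745% in bile (0.0704 to 0.0787) and 0.0737% in semen (0.0702 to 0.0773). Plasma was high, serum and urine were intermediate, and semen and bile were low. Because plasma abundance chose the members, their plasma level is a description.

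miR-378b-3p, the minor paralog, was counted 18487 times in plasma, 339 times in serum, 19 times in urine, 93 times in bile and 42 times in semen. Its share was 1.60% in plasma (1.58 to 1.62), 0.0716% in serum (0.0642 to 0.0797), 0.0716% in urine (0.0431 to 0.112), 0.00556% in bile (0.00449 to 0.00681) and 0.00184% in semen (0.00132 to 0.00248). The fluids fell in the order of miR-378, except that semen and bile, level for miR-378, were apart here.

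**Figure D1:**
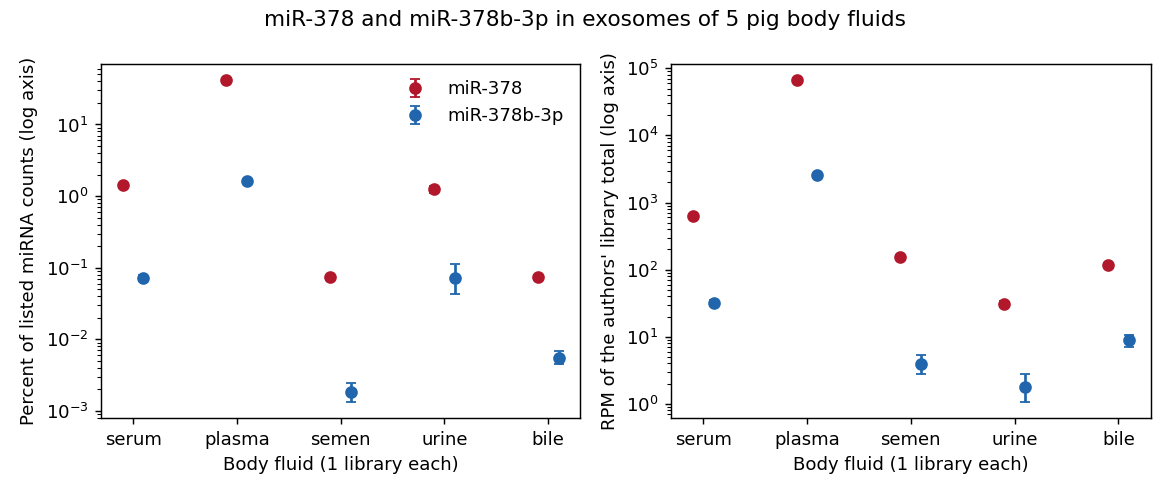
Level of miR-378 (red) and miR-378b-3p (blue) in each fluid, left as percent of the listed miRNA counts and right as RPM of the authors' library total, both on log axes; bars are exact 95% intervals for counting error. Plasma is the highest fluid for both members on both scales, whereas urine moves from beside serum on the left to the lowest place on the right.

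Rank within a library needs no scaling between libraries. miR-378 ranked 1 of 161 miRNAs listed above 0 in plasma, 14 of 84 in urine, 18 of 180 in serum, 40 of 174 in semen and 50 of 179 in bile. In plasma it stood above miR-320 with 295768 counts. In serum it lay between miR-423-5p with 6946 counts and miR-192, a miRNA of liver and intestine, with 6175. In urine its neighbours were let-7a with 338 counts and miR-27b-3p with 313. In semen they were miR-30e-3p with 1687 and miR-99b with 1663, and in bile miR-20a with 1256 and miR-30b-5p with 1171. The miRNA that led plasma was thus at rank 18 in serum, the other blood fluid.

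miR-378b-3p ranked 5 of 161 in plasma, between miR-296-3p with 34789 counts and miR-148a-3p with 16309. Elsewhere it ranked 65 of 84 in urine, 72 of 180 in serum, 118 of 179 in bile and 133 of 174 in semen. Its neighbours were miR-181b with 345 counts and miR-9841-3p with 331 in serum, and miR-150 with 96 and miR-7142-3p with 91 in bile. In semen it was tied at 42 counts with miR-1343, above miR-363 with 40. In urine it was tied at 19 counts with miR-374a-5p, above miR-423-5p with 16. The ranks in urine are out of a shorter list, in a library with few listed miRNA counts (26522) though not a small library total (10796777).

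**Figure D2:**
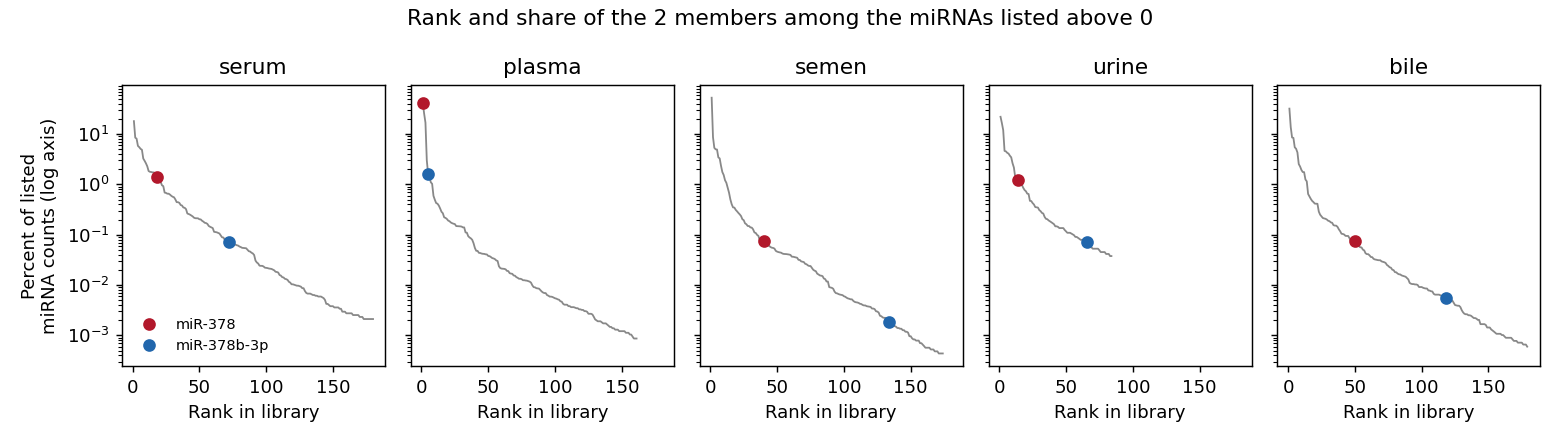
Share of each miRNA listed above 0 against its rank in each library (grey line, log axis), with miR-378 in red and miR-378b-3p in blue. In plasma the points sit at ranks 1 and 5; in the other 4 fluids miR-378 sits at ranks 14 to 50 and miR-378b-3p at ranks 65 to 133.

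Names were also summed by their miRNA number, arms and paralogs together, to place the family among others. Both members together held 43.0% of plasma counts (42.9 to 43.1). The families next below it in plasma were miR-320 with 25.6% and miR-423 with 17.03%, and the fourth was miR-296 with 3.02%. In urine the miR-378 family was ranked 9 among such families with 1.32%, in serum 14 with 1.504%, in semen 30 with 0.0755% and in bile 35 with 0.0800%. The leading families there were let-7 in serum with 20.7%, miR-148 in semen with 53.3% and in bile with 32.3%, and miR-30 in urine with 27.6%.

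With both members taken out of the plasma total, miR-320 came to 45.0% of the remaining counts, miR-423-5p to 29.6%, miR-296-3p to 5.29%, miR-148a-3p to 2.48% and miR-9820-5p to 1.94%. Plasma thus remained dominated by a pair of miRNAs without the family. In serum the same step moved the leading miRNA, miR-148a-3p, from 18.1% to 18.4%. Set against the authors' library total, both members took 6.88% of all reads counted there for plasma, 0.0672% for serum, 0.0160% for semen, 0.0127% for bile and 0.00325% for urine.

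The ratio of plasma to each fluid was computed from counts per 1000000 listed miRNA counts (CPM), with exact conditional binomial 95% intervals. miR-378 stood at 413974 CPM in plasma, 28.9 times serum (28.2 to 29.6), 33.1 times urine (29.7 to 36.9), 556 times bile (526 to 588) and 562 times semen (535 to 590). miR-378b-3p stood at 16023 CPM in plasma, 22.4 times serum (20.1 to 25.0), 22.4 times urine (14.3 to 37.2), 288 times bile (235 to 357) and 872 times semen (645 to 1210). miR-378b-3p thus had the smaller ratio against serum and bile and the larger one against semen, and against urine the intervals overlapped.

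On listed miRNA totals most miRNAs did not share this direction, but against serum this turned with the scaling. Among miRNAs that differed at least 2-fold between plasma and serum, 24 were higher in plasma and 87 in serum on listed miRNA totals (31 and 58 on the authors' library totals), but 52 and 34 with TMM and with DESeq2 size factors. On listed miRNA totals the median plasma ratio over the miRNAs with at least 100 counts in either fluid was 0.148 against serum (n = 119), 0.223 against semen (n = 141), 0.331 against urine (n = 91) and 0.218 against bile (n = 141). At least 2-fold higher levels in plasma were seen for 20.2% of them against serum, 33.3% against semen, 23.1% against urine and 28.4% against bile. By size of ratio, miR-378 ranked 5 against serum, 8 against semen, 4 against urine and 3 against bile, and miR-378b-3p ranked 8, 3, 7 and 5. Both passed a stricter rule, at least 100 plasma counts and 4 times the next highest fluid, which 7 of 86 miRNAs (8.14%) met. Since this contrast is the one that chose the members, nothing is read from their passing it. The other 5 were miR-296-3p, miR-9820-5p, miR-320, miR-423-5p and miR-671-5p. Without the urine library, which had the fewest listed miRNA counts, 16 of 86 (18.6%) met the rule, both members among them.

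The size of the plasma ratio depended on how libraries were scaled. The ratio of miR-378 to serum was 104 on the authors' library totals, 117 with totals that leave out the 3 most abundant miRNAs of each library, 285 with TMM (the trimmed mean scaling of edgeR) and 294 with DESeq2 size factors. For miR-378b-3p these ratios were 80.1, 90.7, 221 and 228. Against urine, miR-378 ranged from 33.1 on listed miRNA totals to 2155 on the authors' library totals. Under all 5 scalings compared, both members were higher in plasma than in each other fluid. TMM also raised the share of all miRNAs at least 2-fold higher in plasma than serum to 43.7%.

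**Figure D3:**
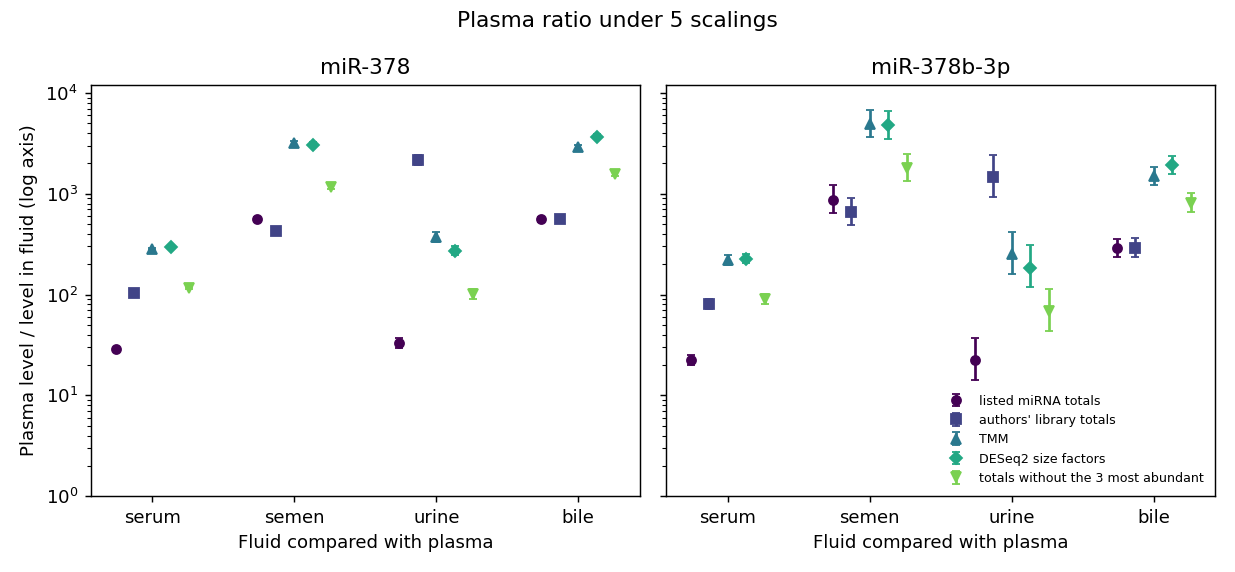
Plasma level divided by the level in each other fluid for miR-378 (left) and miR-378b-3p (right) under 5 scalings (symbols), on a log axis that starts at a ratio of 1; bars are exact 95% intervals for counting error. The ratios run from 22.4 to 4927, and urine shows the widest spread between scalings.

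Ratios to other miRNAs within a library need no library total, so miR-378 was also counted against 8 widely expressed miRNAs. Per count of let-7a, there were 1372 counts of miR-378 in plasma, 0.982 in urine, 0.813 in serum, 0.0424 in bile and 0.0314 in semen. Per count of miR-21, these values were 97.1 in plasma, 0.545 in serum, 0.276 in urine, 0.00870 in bile and 0.00848 in semen. Plasma was far above the other fluids against both references. Over the 8 references (miR-16, miR-103, miR-191, let-7a, miR-26a, miR-21, miR-99a and miR-148a-3p), the ratio in plasma was 178 to 2204 times that in serum, with a median of 1120. It was 1405 to 59926 times that in semen and 2377 to 32402 times that in bile. Against urine, where miR-16 was listed at 0 and 7 references remained, it was 228 to 4550 times higher. Each value exceeds the CPM ratio for the same pair of fluids, since each reference counted there made up a smaller share of plasma than of the other fluid. In plasma miR-16 had 42 counts and miR-103 had 99. miR-16, miR-103, miR-191, miR-21 and miR-148a-3p also stand in the lists of tissue and cell miRNAs used below, so the references are not neutral.

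Among the 4 other fluids the order of miR-378 levels was serum with 14325 CPM, urine with 12518, bile with 745 and semen with 737. Serum was 1.14 times urine (1.02 to 1.28) and urine was 16.8 times bile (14.8 to 18.99). Bile and semen were not told apart (ratio 1.01, 0.938 to 1.09). For miR-378b-3p serum and urine both stood at 716 CPM (ratio 1.0, 0.631 to 1.68), urine was 12.9 times bile (7.43 to 21.3), and bile was 3.02 times semen (2.08 to 4.46). The place of urine moved with the total used. In RPM (reads per 1000000 of the authors' library total) miR-378 had 640 in serum, 156 in semen, 118 in bile and 30.7 in urine, which put urine last. The RPM of miR-378b-3p was 32.0 in serum, followed by bile with 8.81, semen with 3.89 and urine with 1.76. With DESeq2 size factors urine came first of these 4 fluids for both members, but serum and urine could not be told apart (1.08, 0.962 to 1.202, for miR-378). With totals that leave out the 3 most abundant miRNAs of each library, urine was 1.16 times serum for miR-378 (1.03 to 1.29), opposite to the order on listed miRNA totals, so the order of these fluids is not settled. Semen was 1.199 times bile for miR-378 (1.11 to 1.29) with DESeq2 size factors, and bile 1.10 times semen under TMM (1.02 to 1.19).

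The division of counts between the paralogs does not depend on library scaling. miR-378b-3p made up 3.73% of the 496112 family counts in plasma (3.67 to 3.78), 4.76% of 7117 in serum (4.28 to 5.28), 5.41% of 351 in urine (3.29 to 8.32), 6.95% of 1339 in bile (5.64 to 8.44) and 2.43% of 1726 in semen (1.76 to 3.28). miR-378 was the major member everywhere, with 13.4 counts per count of miR-378b-3p in bile, 17.5 in urine, 19.99 in serum, 25.8 in plasma and 40.1 in semen. Semen was thus at the miR-378 end of the range, bile at the miR-378b-3p end, and plasma in between.

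Of the 10 pairs of fluids, 7 had an exact conditional odds ratio whose interval left out 1, and the other 3 all involved urine. The odds of a family count being miR-378b-3p were 1.29 times higher in serum than in plasma (1.15 to 1.44) and 1.55 times higher in plasma than in semen (1.14 to 2.16). Bile had the higher odds against serum and plasma: the serum to bile odds ratio was 0.670 (0.527 to 0.859) and the plasma to bile odds ratio 0.519 (0.420 to 0.648). The widest contrast was semen to bile, 0.334 (0.225 to 0.490). Urine against serum gave an interval around 1 (serum to urine 0.874, 0.542 to 1.49), as did plasma to urine (0.676, 0.426 to 1.14) and urine to bile (0.767, 0.435 to 1.29). These intervals say nothing of how much the split varies between animals.

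**Figure D4:**
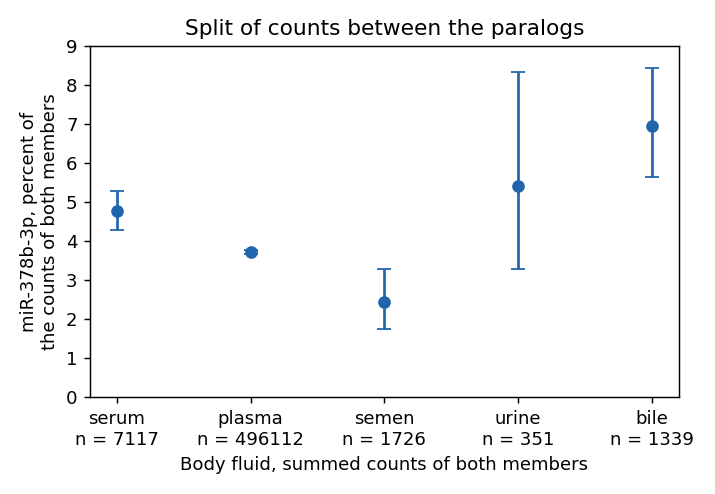
miR-378b-3p as a percent of the summed counts of both members in each fluid, with that sum below each fluid and exact 95% intervals as bars. The share runs from 2.43% in semen to 6.95% in bile; the interval of urine, with 351 counts, overlaps those of serum, plasma and bile.

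From the fluid with the lowest to the fluid with the highest value, the ratio of miR-378 to miR-378b-3p moved 2.99-fold, while the CPM of miR-378 itself moved 562-fold. As a background chosen after the values were seen, the same range was computed for all 2211 pairs of the 67 miRNAs listed in all fluids, and its median was 76.5-fold. A smaller range than that of the miR-378 pair was found for 30 of them (1.36%). Among the 50 pairs that share a miRNA number, such as 2 let-7 members or 2 arms of miR-30a, the median was 7.51-fold and 5 pairs had a smaller range. The miR-378 pair was picked for plasma abundance and these backgrounds were not, so nothing is read from either count. The ratio of miR-378 to miR-320 moved 14.0-fold over the 5 fluids. Without urine it moved 1.76-fold, where the miR-378 pair still moved 2.99-fold. Members with like sequences share reads that could be assigned to either, and the part of read assignment in the range of the miR-378 pair was not tested.

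The profile of a miRNA, its CPM in each fluid as a percent of its sum over the 5 fluids, was compared with that of miR-378 for 165 other miRNAs with at least 100 counts in any library. Distance was the total variation distance, the percentage points that must be moved between fluids to turn one profile into the other. The nearest was miR-378b-3p at 2.25 points, followed by miR-320 at 2.50, miR-193a-5p at 3.19, miR-296-3p at 4.05 and miR-129b at 5.14, against a median of 91.3 points. Since the family was picked for its plasma abundance, only miRNAs mostly in plasma can lie near miR-378, and nothing is read from that median. miR-378 had 93.6% of its profile in plasma, 3.24% in serum, 2.83% in urine, 0.168% in bile and 0.167% in semen. miR-378b-3p had 91.4% in plasma and 4.09% each in serum and urine. miR-320 had 95.6% in plasma and 3.59% in serum but 0.338% in urine. miR-193a-5p, miR-296-3p and miR-129b were listed at 0 in urine. There 10 counts, the smallest value listed above 0, equal 377 CPM, so lower levels of these miRNAs are not seen. Without the urine library miR-671-5p took the place of miR-129b among the nearest 5. miR-320 was then the nearest at 0.375 points and miR-378b-3p the second at 1.09.

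The same contrast was seen in ratios of counts within libraries. There were 1.61 counts of miR-378 per count of miR-320 in plasma (1.61 to 1.62), 1.49 in serum (1.43 to 1.55), 1.74 in semen (1.61 to 1.89) and 0.988 in bile (0.913 to 1.07). In urine there were 13.8 (9.14 to 21.9), from 24 counts of miR-320. Serum, plasma, semen and bile thus lay within 1.76-fold of each other although the CPM of miR-378 differed up to 562-fold among them, and urine stood apart. Per count of miR-423-5p, miR-378 had 2.45 counts in plasma, 0.976 in serum, 0.527 in semen, 0.785 in bile and 20.8 in urine (12.6 to 36.7), from 16 counts of miR-423-5p. Per count of miR-296-3p it had 13.7 in plasma, 21.1 in serum, 17.4 in semen and 104 in bile (59.2 to 202), from 12 counts of miR-296-3p there, and miR-296-3p was listed at 0 in urine. Urine thus held more miR-378 relative to miR-320 and miR-423-5p than the remaining fluids did, while its ratio to miR-378b-3p, 17.5, lay inside the range of the other fluids. The other two leading plasma miRNAs outside the family gave no such pattern. Per count of miR-148a-3p, miR-378 had 29.3 counts in plasma, 0.0792 in serum (0.0773 to 0.0812), 0.0754 in urine (0.0673 to 0.0844), 0.00232 in bile and 0.00140 in semen. miR-9820-5p was counted 12740 times in plasma and 10 times in serum, and listed at 0 elsewhere.

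**Figure D5:**
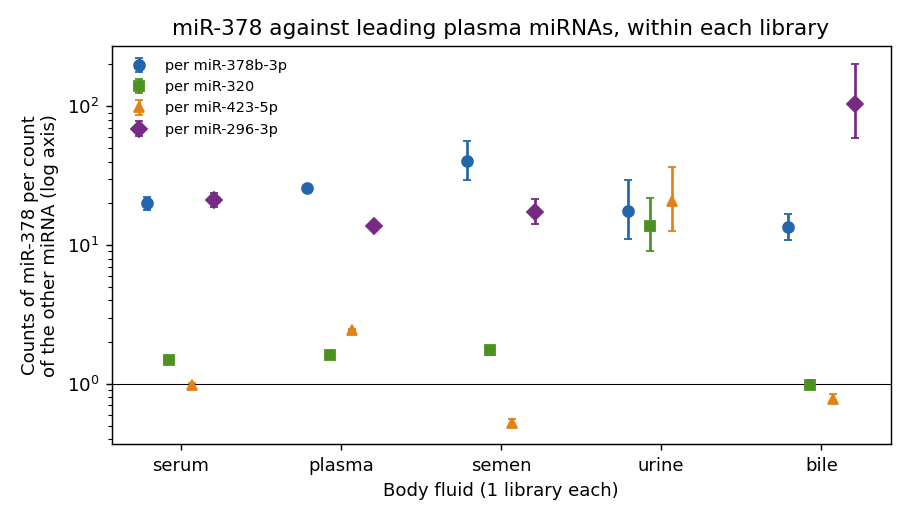
Counts of miR-378 per count of miR-378b-3p, miR-320, miR-423-5p and miR-296-3p in the same library, on a log axis with exact 95% intervals for counting error; miR-296-3p has no point in urine, where it was listed at 0. The ratio to miR-320 is 0.988 to 1.74 in 4 fluids and 13.8 in urine, whereas the ratio to miR-378b-3p is 13.4 to 40.1 in all 5.

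Lists of miRNAs known from tissues and cells were set beside the family. For each miRNA with at least 10 counts in any library, the log2 of plasma CPM + 1 over the mean CPM of the other 4 fluids + 1 was taken. This difference was 5.87 for miR-378 and 5.41 for miR-378b-3p, ranks 12 and 15 of 237. Its median over the 237 was -2.74, and 40 of them were highest in plasma. With TMM the overall median became -0.62 and 79 were highest in plasma, so the lists are read relative to that shift.

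Among 5 measured muscle miRNAs none was highest in plasma and the median difference was -1.69 (1.73 with TMM). miR-206, a skeletal muscle miRNA, had 437 counts in plasma (0.0379% of its miRNA counts) and 257 in serum (0.0543%). For miR-133a-3p, of striated muscle, these were 135 (0.0117%) and 375 (0.0793%). Of 5 measured liver miRNAs none was highest in plasma, with a median of -3.44 (-1.74 with TMM). miR-122 had 11836 counts in plasma, 1.03% of its listed miRNA counts, and 91481 in bile. miR-148a-3p took 1.41% of plasma. Of 7 measured miRNAs of fat and lipid metabolism none was highest in plasma, with a median of -3.84 (-1.18 with TMM), and miR-21 led with 4918 plasma counts and miR-27b-3p followed with 2493. The muscle median lay above the median of all 237 miRNAs under both scalings, as did the erythrocyte, platelet and leukocyte medians given below. The liver and fat medians lay below it under both. With 40 of 237 miRNAs highest in plasma, a count of 0 in lists of 5 to 7 is near the background. With TMM 2 of 5 muscle, 0 of 5 liver and 1 of 7 fat members were highest in plasma, beside 79 of all 237 miRNAs. On listed miRNA totals the sums of the muscle, liver and fat lists in plasma were 0.263, 0.143 and 0.159 times those in serum. They were 0.941, 0.511 and 0.570 times on the authors' library totals, but 2.59, 1.41 and 1.57 times with TMM.

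Blood cell miRNAs took small shares of plasma. The 7 erythrocyte miRNAs summed to 0.876% of plasma counts and 14.2% of serum counts, with a median difference of -2.50 (0.76 with TMM) and none highest in plasma. miR-451, processed in red cells, had 4775 counts in plasma (0.414% of its miRNA counts) and 40127 in serum (8.48%). For miR-185 these were 2561 (0.222%) and 2037 (0.431%), so its share was lower in plasma. The 6 measured platelet miRNAs summed to 0.785% of plasma and 3.12% of serum, with a median of -1.60 (1.03 with TMM). In this list miR-22-3p was highest in plasma, with 0.497%, and miR-24-3p had 0.186%. The 6 leukocyte miRNAs summed to 0.361% of plasma and 2.15% of serum, with a median of -1.61 (1.43 with TMM), led by miR-146a-5p with 3836 plasma counts and miR-142-3p with 141. The sum of the erythrocyte list was lower in plasma than in serum under all 5 scalings, at 0.0616 times on listed miRNA totals and 0.609 times with TMM. The platelet and leukocyte sums were 0.252 and 0.168 times serum on listed miRNA totals, but 2.49 and 1.66 times with TMM. Under TMM 2 of 7 erythrocyte, 2 of 6 platelet and 3 of 6 leukocyte members were highest in plasma, beside 79 of all 237 miRNAs. miR-378 and miR-378b-3p, at 285 and 221 times serum with TMM, lay above all 3 sums under each scaling. Since plasma abundance chose the members, nothing is read from that difference. The part of blood cell RNA in the level of the family was not tested.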

How the data were processed

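Small RNA of 14 to 40 bases, per the labels' protocols, was sequenced from exosomes collected with a commercial isolation reagent and extracted with Trizol. The authors deposited read counts per mature miRNA name and a normalized value that fits RPM (reads per 1000000). Dividing counts by RPM gave 1 library total per file (largest deviation 0.00461%). The reads behind that total, the alignment tool, the annotation release and the handling of multiply matching reads were not found in the labels or files. The submitters' processing notes name bcl2fastq 2.17 and Sscrofa10.2. Mature sequences were not used here, so the planned comparison of sequence features was not made, and miRNAs sharing the seed were not looked for.

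CPM used the sum of the 411 listed counts. Intervals are exact 95% intervals (scipy 1.17.1). A count of 10 served as floor for values listed at 0, only in rules of size. Scalings came from edgeR 4.0.16 (TMM) and DESeq2 1.42.0. Ratios, rules and distances were tested only on simulated counts of equal depth. The unequal miRNA totals of these libraries and the absence of values below 10 counts were not simulated. Named miRNAs were the members, their rank neighbours, the 5 leading plasma miRNAs outside the family, the 5 nearest profiles, the 8 references and the 2 members of each list with most plasma counts. The members of the 4-fold set outside these rules, and the miRNAs heading the families, were named after their values were seen. The members and lists were chosen with earlier results of these data known. Without replicates no p-value was computed.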

Additional observations from a re-analysis of the deposited data

How the results depend on the processing

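No paired analysis was possible because each fluid has 1 library. Both members stayed highest in plasma under every scaling. The ratio to the next highest fluid moved, for miR-378 and miR-378b-3p, to 104 and 80.1 on the authors' library totals, 285 and 221 with TMM, 273 and 185 (urine next) with DESeq2 size factors, and 101 and 68.5 (urine next) without the 3 most abundant miRNAs. A floor of 3 counts could not change the ratio, since both members were above the main floor of 10 counts in every fluid. Leaving out urine, added after seeing the data, could not change it either, as serum was the next highest fluid. Scaling all libraries down in proportion to 26522 counts alters a CPM ratio only by rounding, and kept it within its interval. The family share in serum, plasma, semen, urine and bile was 0.0672%, 6.88%, 0.0160%, 0.00325% and 0.0127% of the authors' library totals. It was 2.30%, 78.9%, 0.228%, 2.68% and 0.175% of totals without the 3 most abundant miRNAs outside the family. Scaled down to 26522 counts and rounded, the miR-378b-3p share was 0% in semen (0 of 20) and 4.76% in bile (1 of 21). No reads were drawn at random, and these 2 values reflect rounding of very low counts, so nothing is read from them about depth. The number at 4 times the next fluid, 7, became 20 on the authors' totals, 25 with TMM, 23 with DESeq2, 12 at 2 times, and 16 without urine, both members among them each time. Higher in plasma than serum by 2-fold were 24 miRNAs (21.6% of those differing), but 52 (60.5%) with TMM and with DESeq2, and 31 (34.8%) on the authors' totals. Of the 5 nearest profiles 3 remained on the authors' totals and 4 with TMM, with miR-320 nearest. The distance of miR-378b-3p became 0.457 and 0.26 points. List medians with TMM were 1.73 (muscle), 0.76 (erythrocyte), 1.03 (platelet) and 1.43 (leukocyte), opposite in sign to the main values, and -1.74 (liver) and -1.18 (fat). With a pseudocount of 10 they were -1.67 (muscle), -3.44 (liver), -3.12 (fat), -2.50 (erythrocyte), -1.48 (platelet) and -1.44 (leukocyte). Apart from the scalings and totals named, the cause of these shifts was not tested.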
